A study of Mus musculus with 6 samples.

Results

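Tead4, Tfap2c, Gata3, Gata2, Elf5, Esx1, Ascl2 and Hand1 are transcription factor genes known for their work in the trophectoderm, the outer cells of the blastocyst, and in the placenta that these cells build. These 8 genes, out of 18749 named genes on the array, were taken by their symbols and found through the RefSeq identifiers of the probes. They had 9 probes among 41174, with 2 for Gata2 and 1 for each of the other genes. The measurements come from mouse embryonic stem cells of 129/Ola strain that were differentiated on gelatin in N2B27, a defined medium without serum that favours neural differentiation. At day 3, 3 samples had been treated for 24 h with TSA (trichostatin A), which inhibits histone deacetylases, and 3 with the solvent DMSO, in 3 independent experiments. The labels give neither the dose of TSA nor the name of the cell line, and no genetic change is recorded for either group. Total RNA of each sample was read on 1 single-colour array. Each of 3 slides carried the TSA sample of an experiment at array position 4 and its DMSO partner at position 3, and the effects of place and treatment cannot be told apart.

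The trophectoderm forms when TEAD4, bound by the co-activator YAP, switches on Cdx2 and Gata3 in the outer cells of the mouse embryo. AP-2 gamma (Tfap2c) and ELF5 then keep trophoblast stem cells in their state, ASCL2 is needed for the spongiotrophoblast, HAND1 for trophoblast giant cells, and ESX1 for growth of the labyrinth. Embryonic stem cells are descended from the inner cells and rarely make trophoblast, and several of these factors also serve other tissues: Hand1 in heart and extraembryonic mesoderm, Gata2 in blood, Gata3 in ear, kidney duct and T cells, and Tfap2c in germ cells and skin.

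RefSeq promoter sequences (build GRCm38.p6, 250 bases before to 50 after a start site) were used for 5 of the 8 genes, and those of Hand1, Tfap2c and Tead4 were not used here. Those of Esx1, the gene that rose, of Elf5, which was not well above background on any DMSO array, and of the related genes Gata2 and Gata3, whose mean differences had opposite signs, are shown because the results below turn on these genes. Capitals mark matches, on either strand, to any of 5 motifs that bear on these factors: the E-box CANNTG bound by basic helix-loop-helix factors such as HAND1 and ASCL2, the TEAD motif CATTCC, the AP-2 motif GCCNNNGGC, the GATA motif AGATAA, and the GC box GGGCGG bound by Sp1.
Esx1, chrX:137120277-137120576, minus strand: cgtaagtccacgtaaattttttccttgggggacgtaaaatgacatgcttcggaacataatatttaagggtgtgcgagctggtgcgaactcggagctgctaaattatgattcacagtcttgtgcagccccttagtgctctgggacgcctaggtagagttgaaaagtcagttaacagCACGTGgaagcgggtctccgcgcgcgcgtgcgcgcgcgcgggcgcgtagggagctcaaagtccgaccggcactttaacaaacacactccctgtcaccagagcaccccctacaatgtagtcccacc
Elf5 upstream start, chr2:103411848-103412147, plus strand: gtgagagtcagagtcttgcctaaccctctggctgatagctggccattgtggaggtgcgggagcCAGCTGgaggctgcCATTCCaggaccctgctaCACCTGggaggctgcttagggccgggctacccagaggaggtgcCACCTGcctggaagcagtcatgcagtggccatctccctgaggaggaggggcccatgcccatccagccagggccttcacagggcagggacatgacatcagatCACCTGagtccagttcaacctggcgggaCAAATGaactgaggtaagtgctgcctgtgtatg
Elf5 downstream start, chr2:103423818-103424117, plus strand: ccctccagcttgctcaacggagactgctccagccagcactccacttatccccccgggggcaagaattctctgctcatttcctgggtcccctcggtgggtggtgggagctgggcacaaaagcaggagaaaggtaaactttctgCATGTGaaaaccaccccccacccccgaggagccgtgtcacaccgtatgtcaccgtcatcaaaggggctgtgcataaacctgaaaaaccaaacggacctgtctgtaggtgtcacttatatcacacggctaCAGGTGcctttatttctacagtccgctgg
Gata2 upstream start, chr6:88193641-88193940, plus strand: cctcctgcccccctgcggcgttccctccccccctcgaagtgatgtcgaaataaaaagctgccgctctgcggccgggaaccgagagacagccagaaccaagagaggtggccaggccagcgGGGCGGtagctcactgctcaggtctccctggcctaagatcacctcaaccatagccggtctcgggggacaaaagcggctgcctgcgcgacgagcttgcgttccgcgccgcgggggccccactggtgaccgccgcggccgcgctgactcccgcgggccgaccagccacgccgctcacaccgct
Gata2 downstream start, chr6:88198414-88198713, plus strand: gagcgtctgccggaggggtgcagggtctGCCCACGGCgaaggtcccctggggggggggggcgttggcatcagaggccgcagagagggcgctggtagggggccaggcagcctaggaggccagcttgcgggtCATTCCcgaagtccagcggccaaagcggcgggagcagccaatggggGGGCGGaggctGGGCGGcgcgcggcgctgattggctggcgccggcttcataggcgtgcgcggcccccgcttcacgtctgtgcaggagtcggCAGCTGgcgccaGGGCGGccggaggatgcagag
Gata3, chr2:9878551-9878850, minus strand: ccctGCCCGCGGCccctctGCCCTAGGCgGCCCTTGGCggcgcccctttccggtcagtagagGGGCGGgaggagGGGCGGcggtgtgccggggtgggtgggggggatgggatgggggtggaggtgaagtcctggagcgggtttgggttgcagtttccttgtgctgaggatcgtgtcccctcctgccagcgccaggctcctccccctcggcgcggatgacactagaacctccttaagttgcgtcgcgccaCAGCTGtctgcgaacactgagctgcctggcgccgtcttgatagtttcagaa
In the Esx1 promoter 1 E-box was the sole match to these motifs, while the upstream Elf5 start had 5 E-boxes and 1 TEAD motif. The downstream Elf5 start had 2 E-boxes. The Gata3 promoter held 3 AP-2 motifs, 2 GC boxes and 1 E-box. None of the printed windows had the GATA motif in the form AGATAA, and other forms of it were not searched. Matches to different motifs shared 0 bases. Of 32851 RefSeq promoters of the same length, 72.3% held the E-box, 35.7% the GC box, 16.6% the AP-2 motif, 14.7% the TEAD motif and 11.2% the GATA motif, so these matches are a description and no evidence of binding. CpG dinucleotides numbered 24 in the Esx1 window and 3 and 10 in the upstream and downstream Elf5 windows, against a median of 7 over all promoters. The arrays read transcripts and not start sites, and which Elf5 or Gata2 start was used was not measured.

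The depth of the arrays was similar except on TSA replicate 2. In intensity units, the 75th percentile was 670, 311 and 885 on TSA replicates 1, 2 and 3, against 632, 654 and 926 on DMSO replicates 1, 2 and 3, and between 61.1% and 72.3% of spots lay well above background. TSA replicate 2 was thus the dim array, and the lowest signal called well above background lay at -4.86 on the log2 scale relative to the 75th percentile there, against -6.57 to -5.67 on the other arrays. Levels below are log2 of the processed signal minus the array's 75th percentile, so each unit is a doubling. They are given for a probe across arrays and are not set against another gene's. Differences are TSA minus DMSO with the moderated standard error of limma. Tests covered the 7 genes that 3 or more of the 6 arrays showed well above background, out of 14523 named genes tested. Elf5 was above background on 2 arrays and was not tested. Of the 7 tested genes, 0 owed their place in the test to TSA arrays alone. The small number of arrays, 3 in each group, limits the precision, and in these cell populations fewer cells of a type and less RNA per cell cannot be told apart.

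Among these regulators, Esx1 stood far higher in TSA, by 3.53 ± 0.36 on the log2 scale, and was the 1 tested gene of the 7 that passed (limma, adjusted p = 0.0248). None fell. Over all 14523 tested genes, 1.35% rose and 0.0551% fell. Hand1 differed by 1.61 on average, but its level varied so much between experiments that it passed once the slide was a block in the fit (adjusted p = 0.0426) and not without (adjusted p = 0.626). With that block 2 of the 7 genes rose, Esx1 and Hand1, and 0 fell, against 3.19% and 0.145% of all tested genes. Tead4, Tfap2c, Gata2 and Ascl2 had mean differences of 0.50 to 0.79 and Gata3 one of -0.54, and these 5 passed in neither of the 2 fits. On each of the 3 slides, 6 of the 7 genes were higher in TSA and 1, Gata3, was lower, against 32.6% and 21.4% of all tested genes. On slide 2 the unscaled signal of Tead4, Tfap2c, Ascl2 and the brighter Gata2 probe was lower on the TSA array, which was the dim one, so their place above DMSO there depends on the scaling. The 7 genes share the same 6 arrays and were chosen with results of these data known, so this count is a description. The median difference of the 7 was 0.78, against 0.08 over all tested genes.

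**Figure D1:**
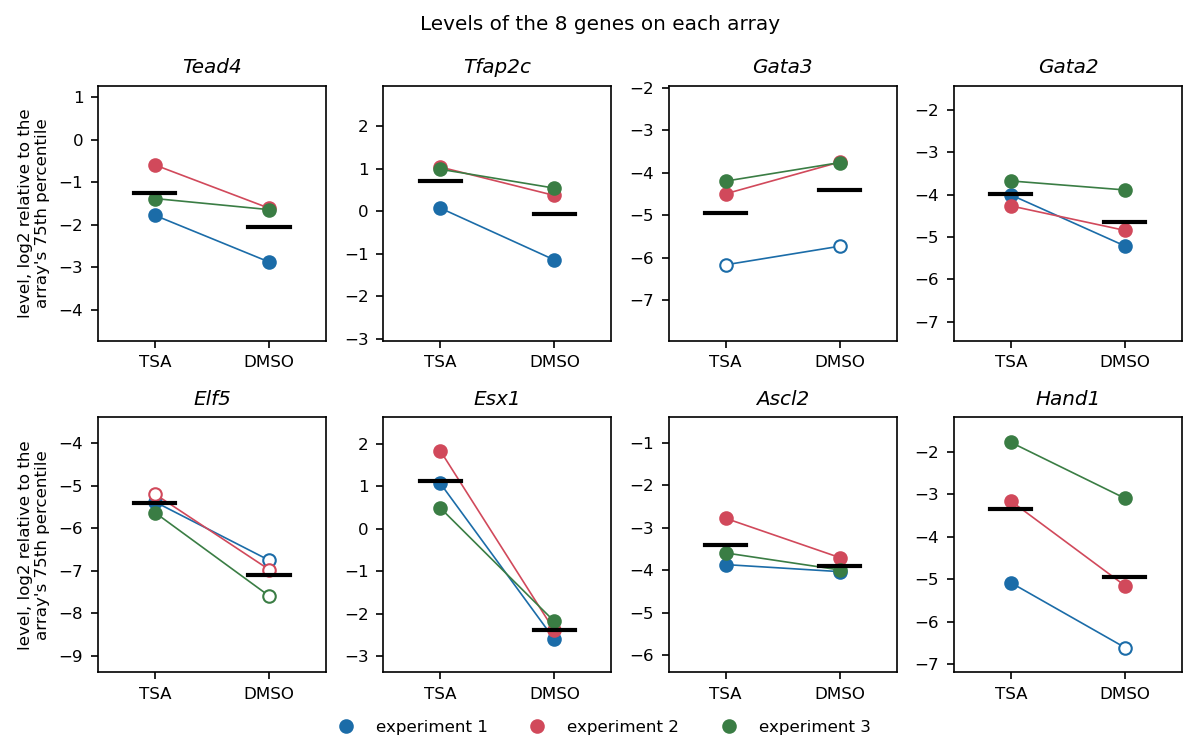
Level of each of the 8 genes (log2 of the processed signal relative to the array's 75th percentile) in TSA and in DMSO, with 1 point per array, lines joining the arrays of an experiment and its slide, and black bars at group means (n = 3 each); open points were not well above background, and each panel spans 6 log2 units. The TSA points of Esx1, at 0.49 to 1.83, lie above its DMSO points, at -2.61 to -2.19, while the experiments of Hand1 lie far apart in both groups.

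Of the genes that open the trophectoderm programme, Tead4, the DNA-binding partner of YAP, was well above background on all 6 arrays. Tead4 had levels of -1.78, -0.60 and -1.39 on TSA replicates 1, 2 and 3, against -2.88, -1.61 and -1.65 on DMSO replicates 1, 2 and 3. The groups overlapped, since TSA replicate 1 lay below DMSO replicates 2 and 3. The difference was 0.79 ± 0.46 (limma, adjusted p = 0.578, or 0.175 in the blocked fit), and the slides gave 1.10, 1.02 and 0.26. Without DMSO replicate 1, the array with the lowest level, the difference was 0.38, in a setting that keeps TSA replicate 1, the low TSA array of the same experiment.

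Tfap2c, which encodes AP-2 gamma, was well above background on all 6 arrays. Tfap2c levels were 0.08, 1.04 and 0.99 on TSA replicates 1, 2 and 3, and -1.14, 0.38 and 0.55 on DMSO replicates 1, 2 and 3. In both groups replicate 1 was the low array, and the groups overlapped. The difference of 0.78 ± 0.51 did not pass (limma, adjusted p = 0.617, and 0.162 with the block), with 1.22, 0.67 and 0.44 on the slides. The spot on DMSO replicate 1 carried a flag for an unusual local background. With such spots left out, a choice made after seeing the data, the difference was 0.23 (limma, adjusted p = 0.817). That setting keeps TSA replicate 1, the low TSA array of the same experiment, while slides 2 and 3 gave 0.67 and 0.44.

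Gata3 and Gata2 encode zinc finger factors of the same family, Gata3 acting beside Cdx2 in the trophectoderm and Gata2 in giant cells. Gata3 levels were -6.17, -4.50 and -4.20 on TSA replicates 1, 2 and 3, against -5.73, -3.75 and -3.77 on DMSO replicates 1, 2 and 3. On each slide the TSA array was the lower, with differences of -0.44, -0.75 and -0.44, but the groups overlapped and both arrays of the first experiment were not well above background. The difference was -0.54 ± 0.72 (limma, adjusted p = 0.776, and 0.211 with the block). Leaving out TSA replicate 1 turned it to 0.067, in a setting that keeps DMSO replicate 1, the low array of the same experiment.

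Gata2 had 2 probes. The brighter gave -4.01, -4.27 and -3.68 on TSA replicates 1, 2 and 3, against -5.21, -4.84 and -3.89 on DMSO replicates 1, 2 and 3. TSA replicates 1 and 2 lay below DMSO replicate 3, so the groups overlapped. The difference was 0.66 ± 0.38 (limma, adjusted p = 0.570, and 0.245 with the block). The other probe gave 0.99 ± 0.42 (limma, adjusted p = 0.428, and 0.152 with the block), with the same sign on each slide. Its largest slide value, 1.49 on slide 1, is set against DMSO replicate 1, where this probe was not well above background. Slide by slide the brighter probe differed by 1.20, 0.58 and 0.21. Whether the treatment acted differently on Gata2 and Gata3 was not tested.

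Elf5, an ETS factor that holds trophoblast stem cells in their state and whose promoter is known to be methylated in embryonic stem cells, was the 1 gene of the 8 that was not tested. Elf5 levels were -5.38, -5.20 and -5.63 on TSA replicates 1, 2 and 3, against -6.75, -6.97 and -7.59 on DMSO replicates 1, 2 and 3. The TSA arrays lay above the DMSO arrays, but only TSA replicates 1 and 3 were well above background, and 0 of the 3 DMSO arrays were. The lowest signals called well above background on the DMSO arrays averaged -6.08, while the measured Elf5 mean there was -7.11. The mean of the 2 detected TSA arrays was 1.49-fold above that -6.08. Signals of probes not called can lie above such a value, so the ratio is not a lower limit. With TSA replicate 2 included at its undetected value, the TSA mean was -5.40 and the ratio 1.60. On slide 2 neither array was well above background. Without a filter on background Elf5 entered the fit and did not pass (limma, adjusted p = 0.104).

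Esx1, a homeobox gene of the X chromosome active in placenta and in male germ cells, was well above background on all 6 arrays. Its processed signal was 1403, 1107 and 1241 intensity units on TSA replicates 1, 2 and 3, against 104, 124 and 204 on DMSO replicates 1, 2 and 3. Relative to the 75th percentile the levels were 1.07, 1.83 and 0.49 on TSA replicates 1, 2 and 3, and -2.61, -2.40 and -2.19 on DMSO replicates 1, 2 and 3. Each TSA array lay above each DMSO array. Esx1 was the 1 tested gene of the 7 with no overlap, against 16.4% of all tested genes with every TSA array above every DMSO array and 8.29% with every one below. The difference of 3.53, an 11.5-fold rise, ranked 9 among the 14523 tested genes, and the slides gave 3.67, 4.23 and 2.67. The TSA arrays spanned 1.35 and the DMSO arrays 0.42. Esx1 also rose in the blocked fit (adjusted p = 0.0313). The limma call was lost when TSA replicate 1, TSA replicate 3 or any of the 3 DMSO arrays was left out (differences of 3.42 to 3.85, adjusted p = 0.0586 to 0.167), settings in which 0 of all 28155 probes passed. Without the dim TSA replicate 2 it rose by 3.17 (adjusted p = 0.0151), and without both arrays of slide 2 the difference was 3.17 (adjusted p = 0.0510). With normexp background correction and quantile normalization Esx1 rose by 2.56 (adjusted p = 0.0493).

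Ascl2, an imprinted basic helix-loop-helix gene expressed from the maternal copy in the placenta, was above background on all 6 arrays at low levels. Ascl2 levels were -3.87, -2.78 and -3.59 on TSA replicates 1, 2 and 3, and -4.03, -3.70 and -3.99 on DMSO replicates 1, 2 and 3. TSA replicate 2 was the highest and TSA replicate 1 lay below DMSO replicate 2. The difference was 0.50 ± 0.32 (limma, adjusted p = 0.610, and 0.299 with the block), with 0.17, 0.92 and 0.40 on the slides. Without TSA replicate 2 it was 0.18, and without both arrays of slide 2 it was 0.28. Before scaling, the Ascl2 spot read 45.3 intensity units on TSA replicate 2, against 50.3 on DMSO replicate 2.

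Hand1, the basic helix-loop-helix gene of giant cells, heart and extraembryonic mesoderm, varied more between experiments than any of the other 7 genes. Hand1 levels were -5.08, -3.16 and -1.78 on TSA replicates 1, 2 and 3, against -6.61, -5.15 and -3.10 on DMSO replicates 1, 2 and 3. The range within a group was 3.30 in TSA and 3.51 in DMSO, larger than the difference between the groups. Within each experiment the TSA array was the higher, by 1.53, 1.99 and 1.32. The standard error was accordingly 1.10 without a slide term and 0.21 with one, and Hand1 rose by 1.61 in the blocked fit (limma, adjusted p = 0.0426). DMSO replicate 1 was not well above background. With no slide term the difference was 0.78 without DMSO replicate 1 and 0.83 without TSA replicate 3. It was 2.48 without TSA replicate 1 and 2.54 without DMSO replicate 3. Each of these settings keeps the partner of the array left out, so the spread between experiments enters the value. With normexp and quantile normalization the difference was 0.35.

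**Figure D2:**
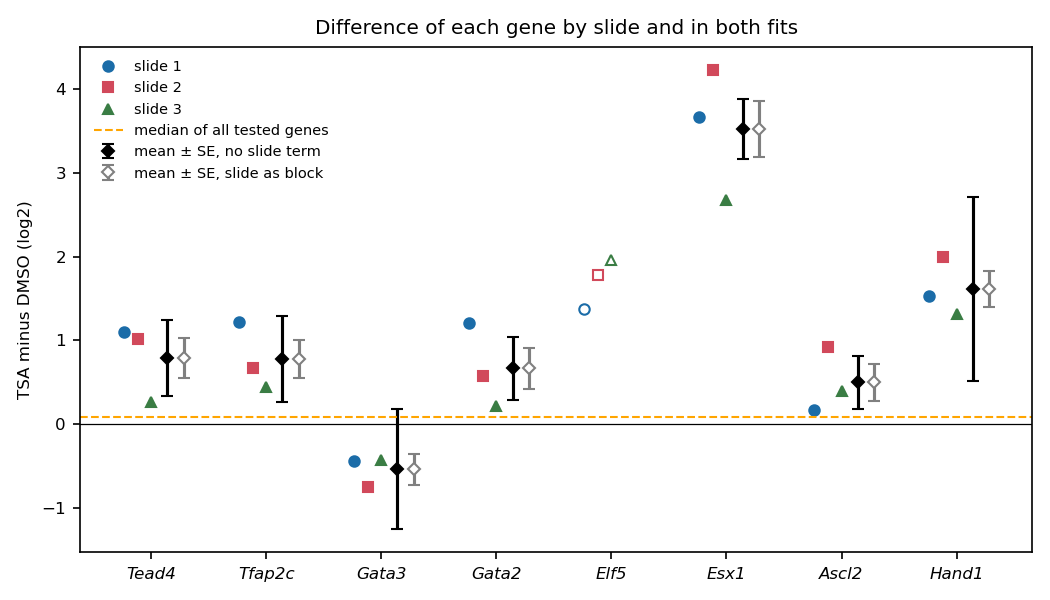
TSA minus DMSO (log2) of the 8 genes on each of the 3 slides (coloured points), beside the mean with the standard error of limma without a slide term (black) and with the slide as a block (grey); Elf5 (open points) was not tested. The black and grey bars differ most for Hand1, at 1.10 against 0.21, and little for Esx1, at 0.36 against 0.33.

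The genes whose levels ran most like each regulator over the 6 arrays differed from gene to gene. By Pearson correlation, Esx1 was most like Ssbp4 (0.999), Ablim3 (0.998) and Rhd (0.998), of which Ssbp4 and Rhd also rose (1.48 and 2.14, limma adjusted p = 0.0430 and 0.0323). Among the 3 genes most like Hand1 were Pmp22 (0.989) and Bmp4 (0.988), a secreted signal that induces extraembryonic mesoderm. Tead4 was most like Notch1 (0.998), Gata2 most like Rcan3 (0.988), Gata3 most like Cpne1 (0.987), Tfap2c most like Trabd2b (0.997) and Ascl2 most like Tkfc (0.998). These correlations rest on 6 arrays that share treatments and slides, and each gene named is among the 3 best of 14523.

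The nearest protein-coding genes on either side, 2 each way in the RefSeq gene order, were read as well. Of 32 such neighbours 21 were tested, 0 passed with or without the slide as a block, and their median difference was 0.11. At an unadjusted limma p under 0.05 their counts were 0 without and 2 with the block. Over all 28155 tested probes these counts were 3364 and 5515. Of the Esx1 neighbours, Zcchc18 gave 0.30 ± 0.30 (limma, adjusted p = 0.712) and Fam199x -1.19 ± 0.99 (adjusted p = 0.670), with the lowest slide value of Fam199x, -3.27, on slide 2. Il1rapl2 and Tex13a were not above background on enough arrays. Beside Ascl2, Ins2 and Cd81 gave 0.31 and 0.32, and beside Hand1, Galnt10 gave 0.94 ± 0.46 (adjusted p = 0.506).

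**Figure D3:**
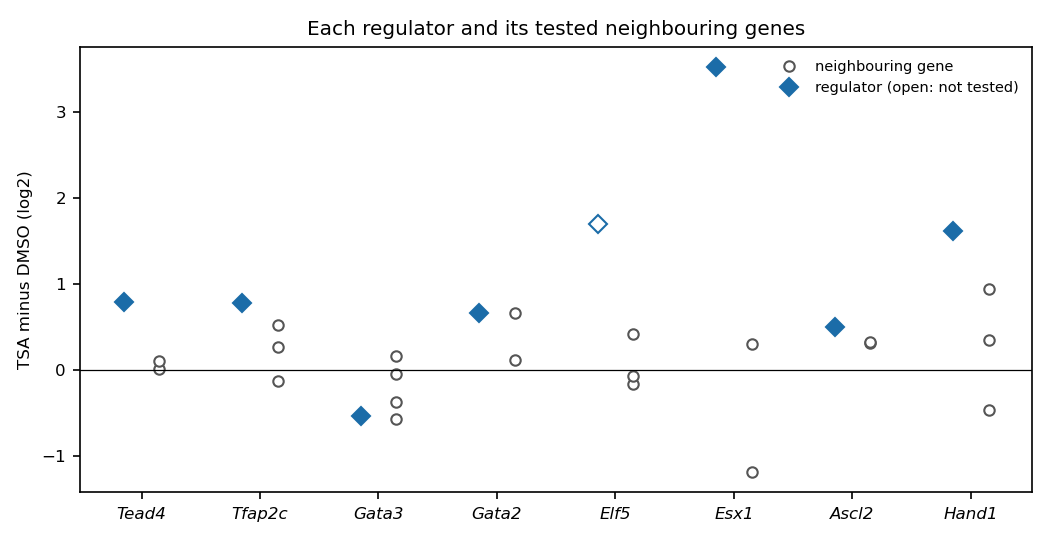
TSA minus DMSO (log2) of each regulator (blue, open where not tested) and of its tested neighbouring genes (grey). Esx1, at 3.53, lies far from its 2 tested neighbours, at 0.30 and -1.19.

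Trophoblast genes beyond the 8 were compared in lists drawn from textbook knowledge, each set beside all tested genes, of which 58.1% had a higher mean in TSA. With or without the slide as a block, 0 or 1 members of each list rose and 0 fell (3.19% and 1.35% of all tested genes rose). Array quality weights gave 0 to 3 that rose in a list, against 960 of all 14523 tested genes. Weights with the block gave 3 to 6 in a list, against 2496 of all tested genes. Of 13 tested genes of trophoblast stem cells, 9 had a higher mean in TSA, the median was 0.38 and 0 rose or fell. Id2, an inhibitor of helix-loop-helix factors, gave 0.60 ± 0.19 (limma, adjusted p = 0.257), and Fgfr2, the receptor through which FGF4 maintains trophoblast stem cells, -1.21 ± 0.33 (adjusted p = 0.182). Cdx2, named after its values were seen, the homeobox gene that commits cells to trophectoderm and later marks the posterior embryo, gave 1.46 ± 1.00 (limma, adjusted p = 0.626) and rose in the blocked fit (adjusted p = 0.0394). Cdx2 levels were 0.37, 3.31 and 1.10 on TSA replicates 1, 2 and 3, against -1.01, 1.93 and -0.53 on DMSO replicates 1, 2 and 3, so replicate 2 was the high array in both groups.

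Epithelial genes of the trophectoderm had 14 tested members, of which 11 averaged higher in TSA. The median was 0.31, and 0 rose or fell. The water channel Aqp3 gave 0.94 ± 0.33 and the endocytic adaptor Dab2 0.57 ± 0.27 (limma, adjusted p = 0.308 and 0.488). Of 17 giant cell and spongiotrophoblast genes with a probe, 7 were above background on 0 arrays and 7 were tested. All 7 tested ones averaged higher in TSA, their median was 0.57, and 0 rose or fell. Plac1, a membrane protein of trophoblast, gave 1.75 ± 0.49 (adjusted p = 0.197) and Phlda2, an imprinted brake on placental growth, 1.16 ± 0.40 (adjusted p = 0.299). Tpbpa, the defining spongiotrophoblast gene, was above background on 0 TSA arrays and on 1 DMSO array.

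In the labyrinth and syncytiotrophoblast list, 11 of 13 tested genes had a higher mean in TSA, the median was 0.17, and 1 rose. This was Cebpa, a factor of labyrinth, liver, fat and myeloid cells, with levels of -2.42, -2.22 and -3.12 on TSA replicates 1, 2 and 3, against -4.93, -4.63 and -4.99 on DMSO replicates 1, 2 and 3. Its groups did not overlap, and it rose by 2.26 ± 0.29 (limma, adjusted p = 0.0335). With quantile normalization, normexp background correction, the authors' table or no filter, without slide 2, and without any 1 array other than TSA replicate 2, 0 genes of the list rose. Gcm1, which drives syncytiotrophoblast formation, gave 0.69 ± 0.31 (adjusted p = 0.452).

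Relatives of the regulators and their partners were read in the same way. Of 16 tested family relatives, 10 had a higher mean in TSA, the median was 0.18 and 0 rose or fell, while Gata1, the blood member of the GATA family, rose in the blocked fit (1.57, adjusted p = 0.0365, against 0.158 without). Gata1 was above background on 3 TSA arrays and 1 DMSO array, so it entered the test through TSA and its difference is set against DMSO levels mostly not measured. Elf4 gave 1.33 ± 0.22 (limma, adjusted p = 0.0547). Of 6 tested Rhox genes, homeobox genes of the X chromosome that like Esx1 act in placenta and germ cells, 6 had a higher mean, the median was 1.12 and 0 rose or fell. With the block 1 rose, Rhox13 (1.70, adjusted p = 0.0363, against 0.0711 without). Rhox6 gave 1.18 ± 0.28 and Rhox9 1.33 ± 0.29 (limma, adjusted p = 0.137 and 0.110). Rhox genes have near-identical copies, so their probes may bind relatives. Of 15 tested partners and targets of TEAD factors, 7 had a higher mean, the median was -0.13 and 0 rose or fell, with Yap1 at -0.61 ± 0.25 (limma, adjusted p = 0.416) and the TEAD cofactor Vgll2 at 1.37 ± 0.33 (adjusted p = 0.137).

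**Figure D4:**
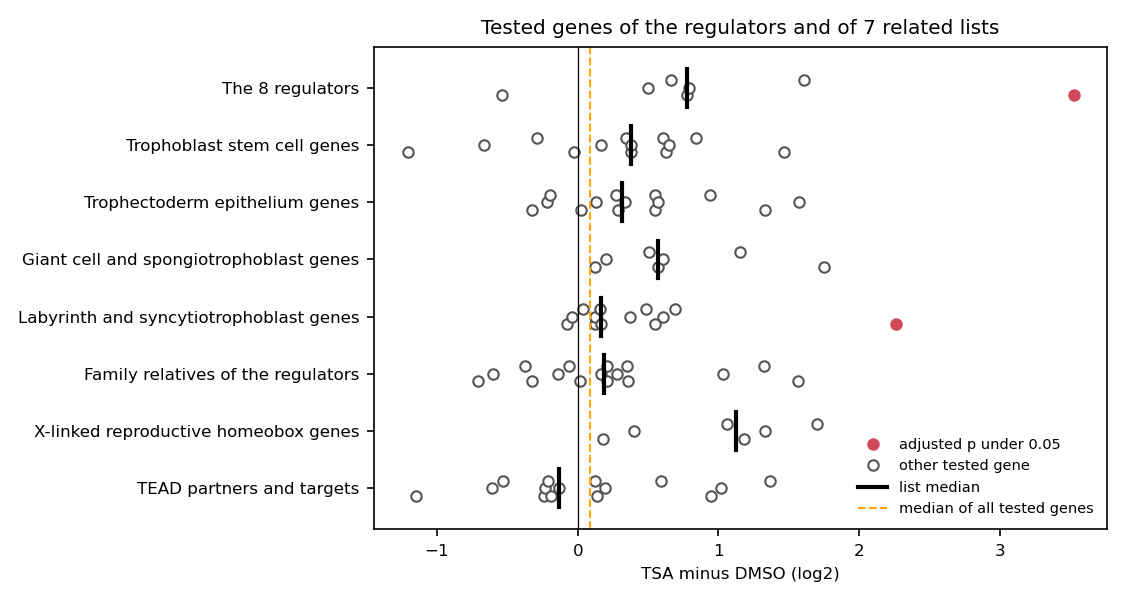
TSA minus DMSO (log2) of the tested genes of the 8 regulators and of the 7 related lists, with list medians (black bars), the median of all tested genes (dashed line) and genes that passed in red. Esx1, at 3.53, and Cebpa, at 2.26, are the 2 red points.

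Markers of cell types that could hold these regulators were summed per array as signal relative to the 75th percentile. Trophoblast markers were above background on all 3 arrays for 7 of 9 genes in TSA and 6 of 9 in DMSO, with sums of 5.87 to 17.6 in TSA and 3.88 to 9.75 in DMSO, but Cdx2 and Eomes among them also mark the primitive streak. Neural progenitor markers were above background on all 3 arrays for 6 of 7 genes in each group, with sums of 8.38 to 9.27 in TSA and 10.4 to 12.3 in DMSO. Pluripotent stem cell markers were above background for 7 of 7 in each group, with sums of 19.3 to 29.0 in TSA and 20.1 to 42.1 in DMSO. Lateral, cardiac and extraembryonic mesoderm markers summed to 0.675 to 1.30 in TSA and 0.334 to 0.794 in DMSO. In each group 5 of 9 genes were above background on all 3 arrays, and Foxf1 was on none. Isl1, above background on 2 DMSO arrays, rose with the slide as a block (1.41, limma adjusted p = 0.0394, against 0.483 without). Of 6 tested mesoderm markers 4 had a higher mean in TSA (median 0.74), while Kdr was lower on each slide (-0.17, -0.26 and -0.43). Blood and endothelial markers summed to 0.369 to 0.770 in TSA and 0.319 to 0.440 in DMSO, and Hbb-bh1, Hba-x and Cdh5 were above background on no array. Among these markers 4 of 5 tested had a higher mean in TSA (median 0.56), while Pecam1 was lower on each slide (-0.49, -0.37 and -0.68). Visceral endoderm markers summed to 1.42 to 5.37 in TSA and 0.931 to 3.13 in DMSO, with Ttr and Apoa1 above background on no array, and Amn rose with the block (1.84, adjusted p = 0.0320, against 0.179 without). Of 5 tested visceral endoderm markers 4 had a higher mean in TSA (median 0.47), while Cubn was lower on each slide (-0.24, -0.25 and -0.007). Surface ectoderm markers summed to 0.331 to 0.674 in TSA and 0.322 to 0.533 in DMSO, and markers of ear and ventral neural tube to 1.01 to 1.37 in TSA and 1.11 to 1.75 in DMSO. Within each of the 3 experiments the sum was higher in TSA for trophoblast, mesoderm, blood, visceral endoderm and surface ectoderm markers. It was lower for neural progenitor and pluripotent markers, while ear and ventral neural tube markers differed in sign between experiments. Such sums follow the brightest markers. For surface ectoderm the sums of experiment 1 lay close, at 0.331 in TSA and 0.322 in DMSO. Its tested markers had a higher mean in TSA for 3 of 5 (median 0.15). The sign for pluripotent markers is that of Pou5f1, while 5 of the 7 had a higher mean in TSA (median 0.38). For visceral endoderm the sign rests on Amn in experiments 1 and 3. The part of these cell types in the differences of the 8 genes was not tested.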

How the data were processed

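Total RNA of 3 TSA and 3 DMSO samples was labelled with Cy3 and read on single-colour Agilent arrays (array annotation on mm9). The deposited scanner files give spot intensity values processed with Agilent Feature Extraction 10.7, per the file headers. The authors' deposited table holds log2 values, whose normalization and centring are not given in the sources used here, and served as an alternative.

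Control spots and spots flagged as feature outliers were left out, spots of a probe were averaged, and the log2 intensity minus the array's 75th percentile was fitted with limma 3.58.1 in R 4.3.3 on treatment alone. Probes well above background on at least 3 arrays were tested (28155 of 41174), with Benjamini-Hochberg adjustment over all of them, two-sided, and a threshold of 0.05. RefSeq identifiers named 27476 probes with 1 gene and left 13698 without a name. A gene stands for its brightest tested probe. Named genes are the 8 regulators, the 3 genes most correlated with each, their neighbours, and in each list up to 4 genes with the smallest adjusted p and any that passed; some genes the rule names are not reported here. Cdx2, Eomes, Pou5f1, Kdr and markers above background on no array of a group were named outside this rule, after their values were seen. The members and lists were chosen with earlier results of these data known. Same-numbered samples share an experiment and a slide, and their deviations from group means had correlations of 0.484, 0.614 and 0.585 (other pairs lay between -0.568 and 0.0916), so the numbers pair the samples. The fit on treatment alone does not use this pairing, and its p-values measure the spread between the 3 arrays within each group. Those of the blocked fit measure the spread of the TSA minus DMSO differences between the 3 slides. Tables and figures were made with Python 3.11.15. The fitting was tested on simulated data.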

Additional observations from a re-analysis of the deposited data

How the results depend on the processing

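With 258 probes higher and 10 lower in TSA as reported, the limma counts moved widely. The slide as a replicate block gave 616 higher and 41 lower, array quality weights 1348 and 298, and weights with the block 3765 and 2111. Higher probes numbered 62 with normexp (on median spot signals), 147 with quantile normalization, 136 with median centring, 142 in the authors' table and 58 with no filter, which gave 0 lower. Leaving out slide 2 gave 0 and 0 (4994 probes at an unadjusted p under 0.05), and leaving out 1 array 0 to 574 higher and 0 to 53 lower. Of the 7 tested regulators 2 rose with the block, against 463 of all 14523 tested genes. With weights and block 3 rose and 1 fell, against 2496 and 1001 of all tested genes. Without slide 2, 0 regulators rose (0 of all), and without 1 array 0 to 1 (0 to 430 of all). The block changed no other call of a regulator than that of Hand1 (1.61).

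With normexp and quantile normalization Esx1 gave 2.56 (adjusted p = 0.0493), Hand1 0.35, Gata2 0.058, Gata3 -0.12, Ascl2 0.12, Tead4 0.46 and Tfap2c 0.60. Esx1 differed by 3.17 without slide 2 (adjusted p = 0.0510), by 3.17 to 3.85 without 1 array (adjusted p = 0.0151 to 0.167) and by 2.67 on slide 3 alone. With weights and block Hand1 gave 1.40, Tfap2c 0.67 and Gata3 -0.45, and all 3 passed. Single slides gave 1.99 for Hand1 and -0.75 for Gata3 and 0.92 for Ascl2 (slide 2), 1.20 for Gata2, 1.37 for Elf5 (its DMSO array not well above background) and 1.22 for Tfap2c (slide 1), and 0.26 for Tead4 (slide 3). In the related lists, weights with the block raised 6 of 13 tested genes for trophoblast stem cells, 4 of 14 for epithelium, 4 of 13 for labyrinth and 4 of 6 for Rhox. The counts were 3 of 7 for giant cells, 3 of 16 for relatives and 3 of 15 for TEAD. Over all tested genes 2496 of 14523 rose in that setting. Without 1 array Gata3 ranged from -1.20 (DMSO replicate 1 left out) to 0.067 (TSA replicate 1 left out). The causes were not tested. Of 132 recomputed values of regulators with a test, 121 kept direction and side of the threshold. Most of the 132 belong to genes that did not pass in the main fit, so this count says little about robustness. Esx1, the gene that passed, lost its call in 6 settings. All 24 single-slide values kept their direction, but the main difference is their mean, and those of Elf5 rest on undetected DMSO levels. Signals near background limit Elf5, Gata3, Hand1 and the dimmer Gata2 probe.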
